A study of Xenopus allofraseri with 8 samples.

Results

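The genes described here are 54 abundant assembled genes whose level differed at least 10-fold between individual frogs. They are 54 of the 163981 Trinity genes in the knee extensor muscles of *Xenopus allofraseri*. A Trinity gene is a group of transcripts that the Trinity program assembled from reads alone, without a genome. The genes were chosen by their own values: estimated counts were summed per gene and divided by the frog's total to give CPM (counts per 1000000). The mean CPM over 8 frogs had to be at least 100 and under 1000, and the highest frog had to be at least 10 times the lowest. Genes with 20 or more transcripts or with a transcript of 20000 bases or more were left out, as were 2 genes by name. The spread between frogs is therefore a description of how the genes were picked, and no test of it is given. In the same range of abundance, transcript number and length, 607 genes varied less than 10-fold.

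All 8 frogs were adult males caught wild in a single pond, and the sources name no treatment that differed between them. Frogs A, D, E and G were classed as endurant and frogs B, C, F and H as burst-performant (n = 4 each) from 4 performance traits. These were the distance and the time to exhaustion and the highest velocity and acceleration of a burst. Each frog gave 1 library of polyadenylated RNA from the knee extensors of the right leg. The groups were therefore made from the traits of these same frogs, and each muscle was sampled once, so that a lasting difference and a passing state cannot be told apart. With 1 library per frog, differences between animals and between libraries cannot be told apart. In bulk muscle, fewer cells of a type and less RNA per cell cannot be told apart either.

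The knee extensors straighten the hind limb in the jump and in the swimming kick. Beside muscle fibers, the tissue holds blood vessels, blood cells, nerve and connective tissue. Many *Xenopus* species carry a duplicated genome, with similar copies of many genes. In a de novo assembly, similar copies or alleles of 1 gene can be built as separate Trinity genes, and 1 gene can be broken into several. The name of a Trinity gene shows its origin. The part before the bar is the read cluster, the number after c is the component (a connected set of overlapping reads), and the number after g is the gene within it. The genes have no annotation in the deposited tables, and of the 103 annotated transcripts that could be joined to them from the study's list of differentially expressed transcripts, 0 lay in the 54 genes. They are named here by their Trinity names alone, and their functions are not known from these files.

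The total of estimated counts ran from 4449192 (frog H) to 17359253 (frog E), and TMM scaling factors ran from 0.774 (frog C) to 1.29 (frog F). The 54 genes together held 0.958% (frog H) to 1.59% (frog A) of a frog's total. Among muscle markers, *ocm4.1*, a calcium-buffering parvalbumin-type protein, ran from 5232 to 12206 CPM. The actin-capping gene *tmod4* ran from 122 to 229 CPM, *mybpc2* from 84.6 to 293 and *lmo7* from 79.5 to 134 CPM, while *fsd2* was at 0 in 5 frogs and at most 6.18 CPM. The summed level of these 5 genes was 5680.1 to 6291 CPM in the endurant and 7086 to 12604 CPM in the burst-performant frogs. Most of this difference was that of *ocm4.1* (means of 5584 and 9809 CPM). The means of *tmod4* (150 and 172 CPM) and *fsd2* (0 and 3.98 CPM) were also higher in the burst-performant frogs. Those of *mybpc2* (187 and 165 CPM) and *lmo7* (105 and 98.8 CPM) were higher in the endurant frogs. Each value is a total over all transcripts of a single Trinity gene. The study reported differential transcripts of *mybpc2* and *lmo7* as higher in the burst-performant frogs, so that these totals do not give the direction of those transcripts. The white blood cell genes *spib.S* and *ctsc* summed to 21.8 to 29.3 CPM in the endurant and 14.9 to 38.2 CPM in the burst-performant frogs, and neither was at 0 in any frog. All these muscle and white blood cell genes were taken from the study's list of transcripts that differed between the same groups of frogs. The study reported differential transcripts of every muscle gene used here as higher in the burst-performant frogs. Actin filament genes that it reported as higher in the endurant frogs were not included. The group differences of the muscle and white blood cell genes are therefore not independent of how these genes were picked. The higher muscle sum in the burst-performant frogs cannot be read as a difference in muscle content, since genes of a single reported direction were summed. Whether muscle or blood cell content moved the 54 genes was not tested.

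The mean level of the 54 genes ran from 105 to 804 CPM, with a median of 194. The ratio of the highest to the lowest frog, with the lowest set to no less than 3 counts, ran from 10.04 to 4492 with a median of 41.1. It exceeded 100 in 16 genes. In 21 genes the second highest frog was also at least 10 times the second lowest, so that the spread did not come from a single frog at either end. In 3 genes at least 1 frog had 0 counts. The genes just inside the limit were TR42045|c0_g3, from 50.6 CPM in frog A to 508 in frog D, and TR43464|c0_g1, from 43.0 in frog H to 432 in frog E. Just outside it lay TR53164|c5_g1 (178 CPM in frog C to 1768 in frog F, a ratio of 9.94) and TR79370|c1_g1 (38.8 in frog C to 379 in frog A, a ratio of 9.76).

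No single frog carried the list. The highest level lay in frog E in 11 genes, in G in 11, in F in 9, in A in 8, in D in 5, in B in 4, in C in 4 and in H in 2. The lowest level was less evenly spread. It lay in frog C in 15 genes and in frog H in 13, in A, D, E and F in 5 each, in G in 4 and in B in 2. An endurant frog was highest in 35 genes and a burst-performant frog in 19. An endurant frog was lowest in 19 and a burst-performant frog in 35. Among the 607 genes that varied less, an endurant frog was highest in 52.9% (64.8% of the 54) and a burst-performant frog lowest in 60.5% (64.8% of the 54). Frogs C and H were also the lowest in 21.9% and 15.3% of the 607 genes that varied less, against 27.8% and 24.1% of the 54. Frogs C and H are those with the lowest TMM factors and the highest *ocm4.1* levels, and frog H has the lowest total. The study lists more read pairs for frog C than for any other frog. Its total of estimated counts (9120121) was nevertheless below those of B, E, F and G, so that it covered a smaller share of the read pairs listed. Frog D likewise had a lower total (4715751) than frog A (7514785), with more read pairs listed. With TMM scaling, C or H was lowest in 23 genes instead of 28, and an endurant frog highest in 34. Whether the other read pairs of C and D were not assigned or not used cannot be told from these totals. The part of scaling, of the *ocm4.1* level or of these read pairs in this was not tested.

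**Figure D1:**
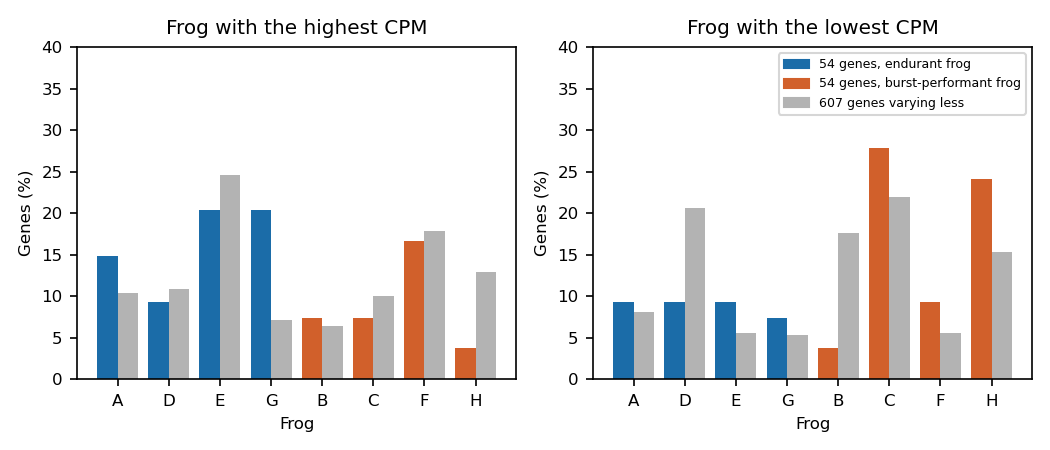
Share of genes (%, vertical axes) in which each frog (horizontal axes) had the highest level (left) or the lowest level (right), for the 54 genes (blue, endurant frogs, and orange, burst-performant frogs) and for the 607 genes that varied less than 10-fold (gray). Frog C was lowest in 27.8% and frog H in 24.1% of the 54 genes.

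The genes did not share a single pattern over the frogs. Pearson's r between genes was taken over the 8 frogs on log2(CPM + 1), and the genes were grouped by average linkage at a mean r of 0.7. Since these values also chose the genes, the groups are a description without a test. This gave 23 sets, of which 9 held 1 gene, 10 held 2 and 4 held more. The median r over all 1431 pairs was 0.02. An r of at least 0.9 was found in 30 pairs (2.10%), against 0.841% of the pairs among the 607 genes, and 2 pairs had an r of -0.9 or less. The 54 and the 607 were divided by their spread (median ratios of 41.1 and 2.36), so that these shares are not like for like.

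**Figure D2:**
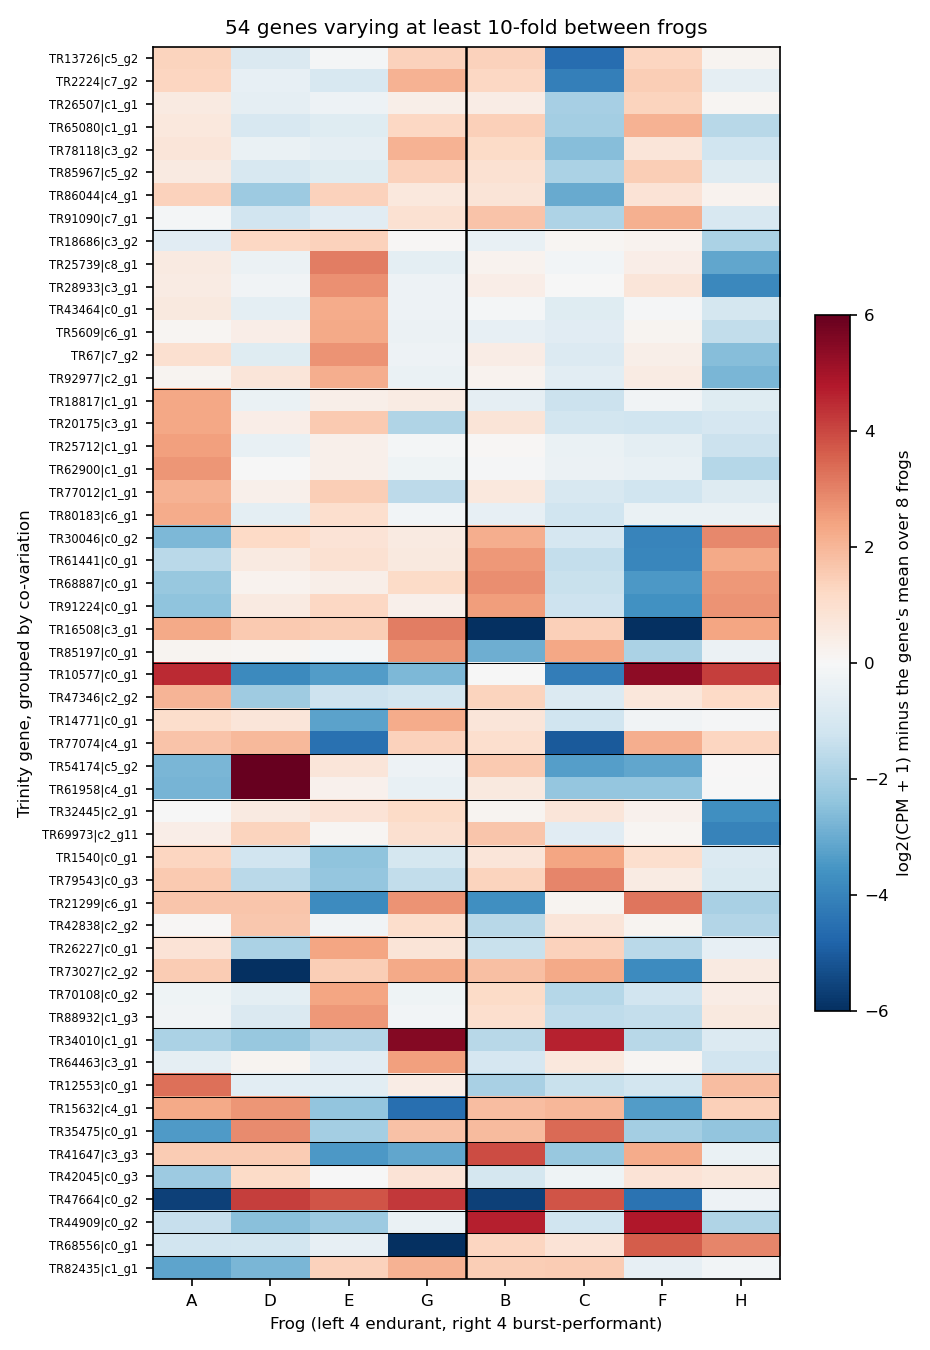
Level of the 54 genes (rows, grouped by co-variation and separated by black lines) in the 8 frogs (columns, endurant left, burst-performant right), as log2(CPM + 1) minus the gene's mean, with red above and blue below it. Separate blocks mark genes low in frog C, high in E and low in H, high in A, and high in B and H.

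The largest set held 8 genes that were all lowest in frog C. At its centre, TR85967|c5_g2 had 213, 74.3, 87.5 and 384 CPM in frogs A, D, E and G, and 278, 38.3, 403 and 84.5 CPM in frogs B, C, F and H. Frogs A, B, F and G thus stood above D, E and H, and C stood below all of them, with both groups on either side. The other 7 were TR13726|c5_g2, TR2224|c7_g2, TR26507|c1_g1, TR65080|c1_g1, TR78118|c3_g2, TR86044|c4_g1 and TR91090|c7_g1. Their highest frog was F in 4 of the 8 genes, G in 3 and E in 1. The mean r within the set was 0.84, and the 8 genes came from 8 read clusters. Summed over the set, frog C had 208 CPM and frog F 3012 CPM, the highest, while with TMM scaling frog B was highest (2432 CPM, F 2399) and C remained lowest (273 CPM). In TR13726|c5_g2 frog C had 3.51 CPM and every other frog at least 56.4. In TR2224|c7_g2 frog C had 3.95 CPM and the others 42.1 to 358. These transcripts were long for the list, the longest of each gene having 1374 to 5752 bases (median 2633). This was not particular to the set, since the set of 7 described next had 885 to 4827 bases (median 3196).

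A set of 7 genes was highest in frog E and lowest in frog H throughout. Its centre, TR25739|c8_g1, had 88.9, 46.02, 506 and 39.1 CPM in frogs A, D, E and G, and 69.4, 53.8, 80.4 and 6.07 CPM in frogs B, C, F and H. The 6 frogs between these extremes lay within 39.1 to 88.9 CPM, so that 1 frog of each group set the range. The other members were TR18686|c3_g2, TR28933|c3_g1, TR43464|c0_g1, TR5609|c6_g1, TR67|c7_g2 and TR92977|c2_g1. In TR28933|c3_g1, frog E had 710.4 CPM, frog H 6.17 and the rest 83.9 to 175. Summed over the 7 genes, frog E had 3699 CPM, frog H 158 and the other 6 frogs 541 to 909. Frogs E and H also had the highest and the lowest total of estimated counts. Per gene, Spearman's rho with the total ran from 0.405 to 0.714 over this set, and in none of the 7 did its exact permutation p reach 0.05. By Pearson r on log2(CPM + 1), 4 of the 7 did, TR25739|c8_g1 (r = 0.80, exact permutation p 0.015), TR28933|c3_g1 (exact permutation p 0.015, its frogs in separate classes), TR43464|c0_g1 (0.74, 0.026) and TR67|c7_g2 (0.81, 0.014), the only such genes of the 54. Without frogs E and H, their r was 0.17 to 0.57. The share of all genes with such a Pearson r is not given, so that this count has no background. The part of this total in the pattern was not tested.

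The set of 6 was highest in frog A in every gene. TR25712|c1_g1, at its centre, had 499 CPM in A, then 65.8, 109.8 and 81.8 in D, E and G, and 95, 68.7, 60.5 and 35.8 in B, C, F and H. Frog A was 4.55 times the next frog, and the other frogs of both groups overlapped. The set also held TR18817|c1_g1, TR20175|c3_g1, TR62900|c1_g1, TR77012|c1_g1 and TR80183|c6_g1. In TR62900|c1_g1 frog A had 848 CPM and the others 40.8 to 165. TR20175|c3_g1 and TR77012|c1_g1 formed a closer pair, in which frog E came second with 708 and 211 CPM behind 1186 and 323 CPM in A, and frog G was lowest with 67.8 and 24.9 CPM. Over the set, frog A summed to 4744 CPM and the other frogs to 490.2 to 1864.

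The set of 4 was the tightest of the 4 sets of more than 2 genes, with a mean r of 0.98 between 4 short genes of 4 read clusters. TR91224|c0_g1 had 21.0, 166, 272 and 143 CPM in frogs A, D, E and G, and 666, 47.6, 8.37 and 759 CPM in B, C, F and H. TR30046|c0_g2 had 12.5, 199, 153 and 124 CPM in A, D, E and G, and 399, 42.7, 4.62 and 644 CPM in B, C, F and H. Frogs B and H were high and frog F lowest in all 4 genes, so that the burst-performant frogs took both ends and the endurant frogs lay between them. TR61441|c0_g1 ran from 9.64 CPM in F to 959 in B, and TR68887|c0_g1 from 3.55 in F to 342 in B. The ratios were 90.6 to 139. The longest transcript of each gene had 461 to 656 bases. Since no sequences were used, it is not known whether they are pieces of 1 RNA.

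Among the pairs, TR54174|c5_g2 and TR61958|c4_g1 (r = 0.99) were abundant in frog D alone. TR54174|c5_g2 had 1970.0 CPM in D, 1.06, 22.4 and 10.3 in A, E and G, and 40.6, 0.439, 0.613 and 13.4 in B, C, F and H. TR61958|c4_g1 had 1037 CPM in D, 0.133, 8.42 and 4.72 in A, E and G, and 10.6, 0.548, 0.540 and 6.79 in B, C, F and H. In both, frogs B, E, H and G followed in that order, and the lowest 3 frogs were A, C and F. TR1540|c0_g1 and TR79543|c0_g3 (r = 0.98) were highest in frog C. TR79543|c0_g3 had 874, 94.0, 58.4 and 105 CPM in A, D, E and G, and 744, 2272, 414 and 158 CPM in B, C, F and H. TR1540|c0_g1 had 419, 75.7, 30.8 and 81.7 CPM in A, D, E and G, and 277, 873, 343 and 95.7 CPM in B, C, F and H. In both genes frog C was highest, A came second and E was lowest, so that the groups overlapped.

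TR70108|c0_g2 and TR88932|c1_g3 (r = 0.99) are single transcripts of 265 and 329 bases, both highest in frog E, at 592 and 1009 CPM, and lowest in frog C, at 34.0 and 58.0 CPM. TR32445|c2_g1 and TR69973|c2_g11 (r = 0.86) were lowest in frog H, at 5.97 and 4.27 CPM, with every other frog at 87.6 to 193 and 51.8 to 268 CPM. TR16508|c3_g1 and TR85197|c0_g1 (r = 0.80) were lowest in frogs B and F and highest in G. TR16508|c3_g1 had 1147, 693, 662 and 1937 CPM in A, D, E and G, 634 and 1203 in C and H, and only 2.73 in B and 2.12 in F. Frogs B and F, both burst-performant, lay 233 times below the next frog. TR85197|c0_g1 had 17.5 CPM in B and 37.5 in F, against 110.3 to 893 in the others.

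The remaining 5 pairs had r of 0.71 to 0.85. TR14771|c0_g1 and TR77074|c4_g1 were both low in frogs C and E. TR77074|c4_g1 had 678, 814, 8.44 and 537 CPM in A, D, E and G, and 421, 5.43, 933 and 514 CPM in B, C, F and H. TR14771|c0_g1 had 922, 718, 46.3 and 2029.8 CPM in A, D, E and G, and 725, 188, 375 and 418 CPM in B, C, F and H. In TR77074|c4_g1 frog C of the burst-performant and frog E of the endurant group were thus far below the rest, and in TR14771|c0_g1 E was lowest and C next. TR26227|c0_g1, the most abundant of the 54, had 866, 130.5, 2586 and 845 CPM in A, D, E and G, and 194, 1291, 161 and 356 CPM in B, C, F and H. Its partner TR73027|c2_g2 had 0 counts in frog D and 4.31 CPM in F, while the other 6 frogs had 105 to 352 CPM. Both were lowest in frogs D and F. TR21299|c6_g1 had 166, 161, 2.75 and 332 CPM in A, D, E and G, and 3.09, 57.7, 475 and 12.4 CPM in B, C, F and H. It was paired with TR42838|c2_g2, which ran from 40.7 CPM in H to 426 in D. TR10577|c0_g1 was paired with TR47346|c2_g2, and TR34010|c1_g1 with TR64463|c3_g1, which was highest in frog G with 465 CPM against 38.1 to 131 in the others.

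The 9 genes without a partner showed 9 further patterns. TR47664|c0_g2 had 0, 867, 677 and 917 CPM in A, D, E and G, and 0, 675, 1.26 and 38.7 CPM in B, C, F and H. A count of 0 allows up to 0.399 CPM in frog A and 0.220 CPM in frog B, so that frog G was at least 4162-fold higher than B. TR44909|c0_g2 was high in B and F only, and TR68556|c0_g1 had no counts in G. TR35475|c0_g1 was high in B, C, D and G, at 112 to 348 CPM, and between 2.16 and 7.14 CPM in A, E, F and H. TR15632|c4_g1 lay between 129 and 299.7 CPM in A, B, C, D and H and between 1.09 and 8.16 in E, F and G. TR41647|c3_g3 ran from 2.91 CPM in E to 642 in B, TR82435|c1_g1 from 5.91 in A to 265 in G, and TR12553|c0_g1 from 11.9 in B to 484 in A. The ninth, TR42045|c0_g3, was the gene nearest the 10-fold limit.

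In 17 of the 54 genes the frogs fell into a high and a low class, with a gap of at least 10-fold between neighboring frogs. The classes followed 13 different divisions of the frogs, and in 0 of the 17 did they match endurant against burst-performant. Only a gap with 4 frogs above it could match, and only TR35475|c0_g1 had one (B, C, D and G), so that the 0 says little about the groups. In 2 genes 1 frog was above the gap, in 6 genes 7 frogs were, and in 9 genes 2 to 6. Each frog lay above the gap in 9 (E, F and H) to 13 (D) of the 17 genes, so that no frog was high or low throughout. TR10577|c0_g1 had 532, 0.693, 1.36 and 2.72 CPM in A, D, E and G, and 22.1, 0.342, 996 and 418 CPM in B, C, F and H. Frogs A, F and H stood apart from the other 5 by 18.9-fold, and B stood between the low frogs and the high ones. The remaining 37 genes had no such gap and a median ratio of 19.8.

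**Figure D3:**
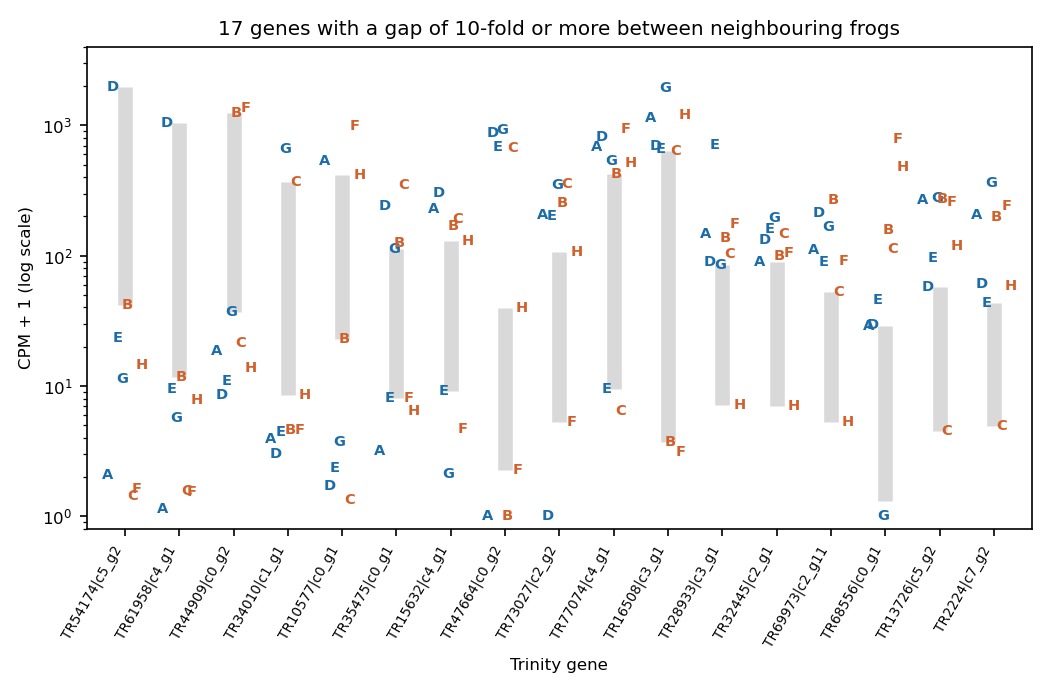
CPM + 1 on a log scale (vertical axis) of the 17 genes (horizontal axis) with a gap of at least 10-fold, each frog given by its letter (blue endurant, orange burst-performant, letters set side by side for legibility) and the gap by a gray bar. The frogs above the gap change from gene to gene, from frog D alone in TR54174|c5_g2 to all frogs but C in TR2224|c7_g2.

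A related assembled gene held the reverse pattern in a few cases, which the choice of genes did not use. TR34010|c1_g1, a single transcript of 244 bases, had 2.91, 2.02, 3.43 and 661 CPM in A, D, E and G, and 3.59, 365, 3.60 and 7.46 CPM in B, C, F and H. Its neighbor in the same component, TR34010|c1_g2, also 244 bases long, had 1968, 1246, 1564 and 12.1 CPM in A, D, E and G, and 1752, 739.97, 1646 and 981 CPM in B, C, F and H. Frog G thus had the first and nearly lacked the second, frog C had both, and the other 6 frogs had almost only the second. The r between them was -0.80, and their sum varied 2.93-fold between frogs. TR47346|c2_g2 had 699, 37.3, 70.4 and 77.1 CPM in A, D, E and G, and 423, 95.8, 271 and 383 CPM in B, C, F and H. In TR47346|c2_g3, frogs A, B and H had 0.30, 0.23 and 2.69 CPM and the other 5 frogs 87.8 to 237 (r = -0.86). The sum of this component varied 4.77-fold. Kallisto shares a read pair among the transcripts that it fits, and the pieces of such a component were not compared by sequence here.

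Over all 54 genes, summing the component brought the ratio under 10-fold in 5 (TR34010|c1_g1, TR42045|c0_g3, TR47346|c2_g2, TR73027|c2_g2 and TR88932|c1_g3), and 26 genes were alone in their component. Of the 5, only TR47346|c2_g2 had a higher mean than the rest of its component (257 and 99.5 CPM). The rest had 1239 CPM beside 131 for TR34010|c1_g1, 2291 beside 285 for TR42045|c0_g3, 845 beside 183 for TR73027|c2_g2 and 23596 beside 263 for TR88932|c1_g3. Summing the whole read cluster brought the ratio under 10-fold in 13, while 41 stayed at 10-fold or more and 9 genes were alone in their cluster. In 8 of the 13, the rest of the read cluster had a higher mean than the gene itself, so that a sum is then mostly the level of other assembled genes. TR77074|c4_g1 is an example, with a mean of 489 CPM beside 26795 CPM in the rest of its cluster. Other cluster neighbors moved with the gene. TR77012|c2_g2 followed TR77012|c1_g1 with an r of 0.98 and had 3189.6 CPM in frog A against 295 to 2130.2 in the others. TR13726|c5_g1 followed TR13726|c5_g2 (r = 0.97) and had 2.96 CPM in frog C against 32.8 to 179 in the others. TR69973|c2_g12 followed TR69973|c2_g11 (r = 0.98), with 0.59 CPM in frog H against 7.56 to 53.0, and TR20175|c1_g1 followed TR20175|c3_g1 (r = 0.97).

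**Figure D4:**
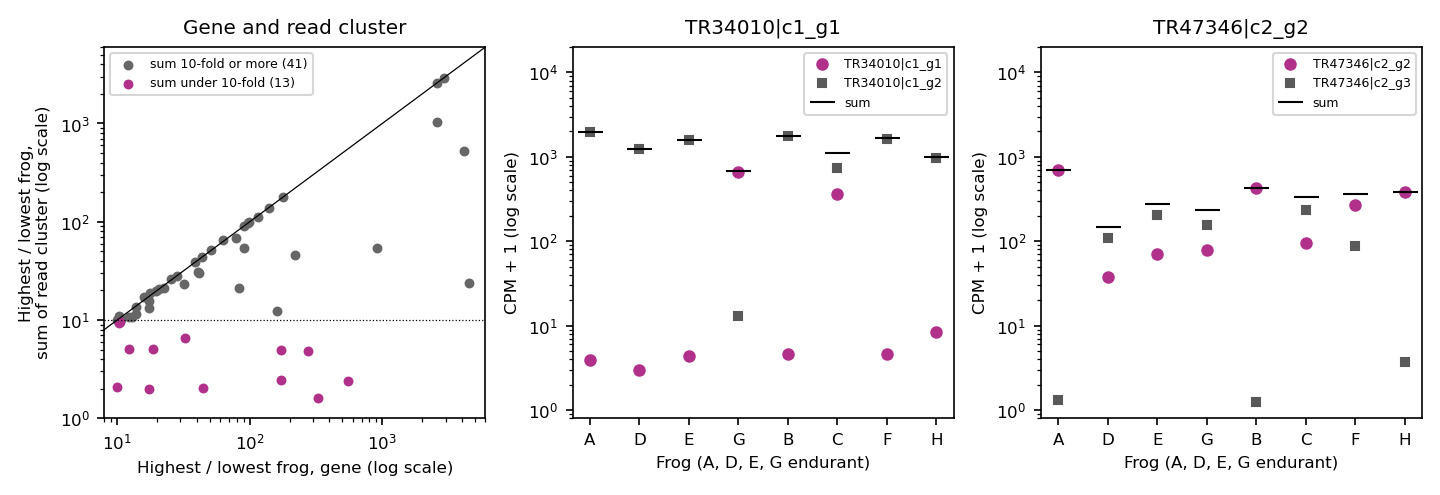
Left, ratio of the highest to the lowest frog for each of the 54 genes (horizontal axis, log scale) against the same ratio after summing its read cluster (vertical axis, log scale), with the 13 genes under 10-fold (dotted line) in purple and equality as a solid line. Middle and right, CPM + 1 (log scale) by frog of TR34010|c1_g1 and TR47346|c2_g2 (purple circles), of an opposed gene of the same component (gray squares) and of their sum (black bars), which varies 2.93-fold and 4.77-fold.

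The 54 genes were shorter than the 607 genes of the same abundance. The longest transcript had a median of 832 bases against 1573, and it was under 700 bases in 26 of 54 genes (48.1%) against 127 of 607 (20.9%). In the 17 genes with a gap the median was 579 bases, and in the other 37 it was 885. A single transcript made up 11 of the 54 genes (20.4%) and 90 of the 607 (14.8%). Of the 43 genes with several transcripts, 24 had 1 main transcript in all frogs with at least 30 counts, and in 19 the main transcript changed between frogs. TR54174|c5_g2 and TR79543|c0_g3 belonged to the first kind, the main transcript of the latter holding 93.4% to 99.9% of the counts. TR13726|c5_g2 and TR80183|c6_g1 belonged to the second, with 4 different main transcripts each. Some changes involved a frog near the limit of 30 counts, such as B in TR16508|c3_g1 (37 counts) and D in TR44909|c0_g2 (36 counts). In TR80183|c6_g1 the main transcript over all frogs held only 19.7% to 38.9% of a frog's counts. Whether the sharing of read pairs between similar transcripts made such changes was not tested. In TPM, which corrects for effective length, all 54 genes still varied at least 10-fold, the same frog was highest in 50 and the same frog lowest in 52. With TMM CPM, only 45 of the 54 still met the rule. Among those that did not were TR85967|c5_g2 (6.76-fold), TR80183|c6_g1 (7.42-fold), TR43464|c0_g1 (7.94-fold), TR18817|c1_g1 (8.57-fold) and TR25712|c1_g1 (9.97-fold).

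The 54 genes were then compared between the endurant and the burst-performant frogs, a division that was not part of the rule, although the rule used the levels of these same frogs. In edgeR's quasi-likelihood test over 35656 Trinity genes, 0 of the 54 were called at a Benjamini-Hochberg FDR of 0.05 and an absolute log2 fold change of 2, and 0% of all genes tested were. The lowest adjusted p among the 54 was 0.9998. At an unadjusted p under 0.05 there were 8 of 54 (14.8%) against 4.43% of all genes and 4.94% of the 607, 6 of them higher in the endurant (2.43% of all genes) and 2 in the burst-performant frogs (2% of all genes). These 8 are not separate cases, since 3 belong to the set high in frog A and 2 to the pair found in frog D. The exact test of edgeR and the Wald test of DESeq2 each called 1 of the 54, TR44909|c0_g2, where they called 0.126% and 0.0932% of all genes. DESeq2 gave an adjusted p for 48 of the 54, and none for 6, TR54174|c5_g2 and TR61958|c4_g1 among them. Without a filter on low counts, the quasi-likelihood test called 6 of the 54 (TR41647|c3_g3, TR44909|c0_g2, TR54174|c5_g2, TR61958|c4_g1, TR68556|c0_g1 and TR79543|c0_g3) and 0.459% of all 159077 genes then tested. The standard error of TR44909|c0_g2 was then 0.43 on the log2 scale, against 1.33 with the filter. In 1 gene, TR68556|c0_g1, the groups did not overlap (1.85%), and they did not overlap in 2.74% of all genes tested and in 8.24% of the 607. The fitted level was higher in the endurant group in 35 genes and in the burst-performant group in 19, with a median log2 difference of 0.43. Over all genes the endurant level was higher in 50.5% (median 0.01), and over the 607 in 37.7% (median -0.16), against 64.8% of the 54. The 35 genes are not separate cases either, since they include all 7 genes of the set highest in frog E and all 6 of the set highest in frog A. The size of the difference, with a median of 0.99 against 0.35 over all genes, is not independent of the choice, since a wide spread between these frogs also widens differences between their groups. Without TMM factors, the median of all genes moved by 0.14 and the division became 37 and 17.

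TR44909|c0_g2, with a longest transcript of 456 bases, had 17.5, 7.53, 9.88 and 35.9 CPM in A, D, E and G, and 1234, 20.3, 1355 and 12.8 CPM in B, C, F and H. Frogs B and F stood 34.4-fold above the next frog, while C and H lay among the endurant frogs. The burst-performant mean was 655 ± 739 (SD, n = 4) and the endurant mean 17.7 ± 12.9, a log2 difference of -5.18 ± 1.33 (SE, endurant minus burst-performant). Its unadjusted p was 0.0029 by edgeR's quasi-likelihood test (adjusted p 0.9998), and the adjusted p was 0.0454 by edgeR's exact test and 0.0442 by DESeq2. Of its 4 burst-performant frogs, 2 were high.

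TR68556|c0_g1 was the gene without overlap. It had 27.9, 28.6, 44.4 and 0 CPM in A, D, E and G, and 155, 111, 791 and 481 CPM in B, C, F and H. The lowest burst-performant frog was above the highest endurant frog, and frog G had 0 counts, which allows up to 0.306 CPM. The log2 difference was -3.95 ± 1.18 (SE), with an unadjusted p of 0.0073 and an adjusted p of 0.9998 by edgeR's quasi-likelihood test. It is alone in its read cluster and has a single transcript of 387 bases.

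In the other genes of lowest p, which were higher in the endurant frogs, 1 frog made up most of the difference. TR18817|c1_g1 had 802, 122, 206 and 224 CPM in A, D, E and G, and 111, 64.9, 139 and 97.4 CPM in B, C, F and H (log2 difference 1.54 ± 0.50, unadjusted p 0.012 and adjusted p 0.9998 by edgeR). Without frog A the log2 difference was 0.71. TR80183|c6_g1 had 1087, 151, 465 and 207 CPM in A, D, E and G, and 163, 102, 173 and 176 CPM in B, C, F and H, with means of 478 ± 429 and 153 ± 35.0 (SD, n = 4). Its log2 difference without frog A was 0.70. TR5609|c6_g1 had 129, 155, 573 and 92.8 CPM in A, D, E and G, and 84.8, 73.8, 134 and 41.3 CPM in B, C, F and H, and without frog E its log2 difference of 1.45 ± 0.57 (SE) became 0.49. TR61958|c4_g1, at a log2 difference of 5.77 ± 2.22 (SE), turned to -0.24 without frog D.

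**Figure D5:**
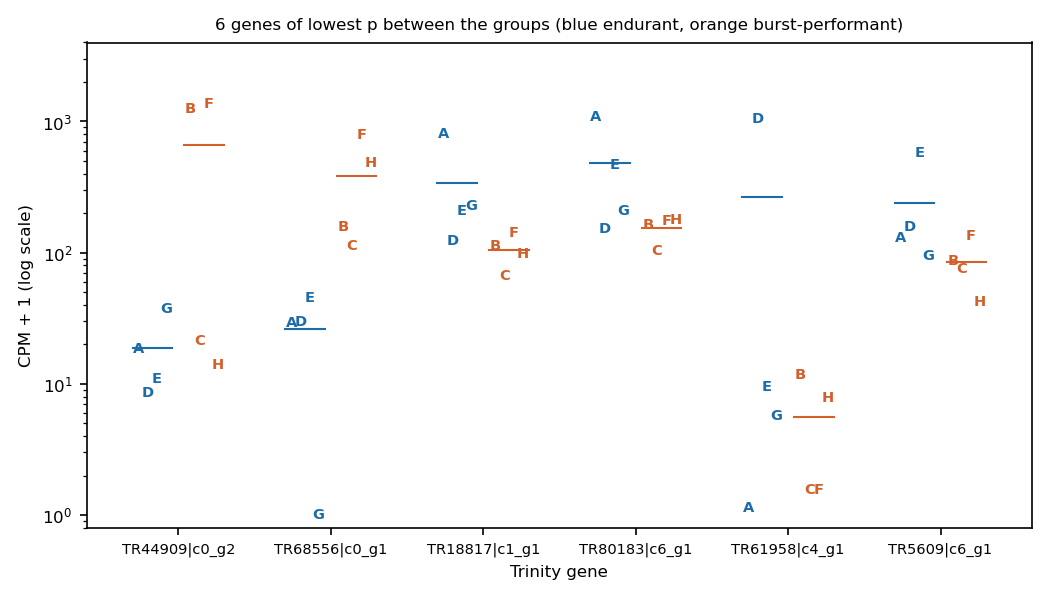
CPM + 1 on a log scale (vertical axis) of the 6 genes of lowest p between the groups (horizontal axis), each frog given by its letter (blue endurant, orange burst-performant) and the group mean by a line. The groups are apart only in TR68556|c0_g1, and frog A, D or E carries the 4 genes with a higher endurant mean.

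The levels were also set against the time to exhaustion, the velocity and the acceleration of each frog, with Spearman's rho and an exact permutation test over all orders of the 8 frogs (2-sided). None of the 35656 Trinity genes passed a Benjamini-Hochberg FDR of 0.05 for any of the 3 traits, and the lowest adjusted p among the 54 was 0.73. With 8 frogs, the smallest p of this test is too large for a single gene to pass alone, however close its relation. Many genes would have to reach that p at once, so that the adjusted p cannot decide on any 1 gene. At an unadjusted p of 0.05 or less there were 3 of 54 for time (5.56%) against 5.9% of all genes. There were 1 for velocity (1.85%) against 3.43%, and 4 for acceleration (7.41%) against 3.32%. For the total of estimated counts there were 0 against 4.33%. These are 4 relations for each of 54 genes. Distance split the frogs into 2 separate classes, the study's groups, and was therefore not used for a correlation. The time to exhaustion also put every endurant frog above every burst-performant frog, though without such a gap. Velocity put every endurant frog below every burst-performant frog, except that G lay above H. The relations to time and to velocity are therefore in part the group comparison again.

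For acceleration, the pair high in frog C had the lowest p. TR1540|c0_g1 had a rho of 0.98 (exact permutation p 0.0004, adjusted p 1.0 over all genes) and a Pearson r of 0.88 (exact permutation p 0.0004). Without the 2 frogs farthest from the median acceleration, A and C, its r was 0.87. TR79543|c0_g3, which moved with it, had a rho of 0.93 (exact permutation p 0.0022, adjusted p 1.0) and an r of 0.89 (exact permutation p 0.0008), and an r of 0.79 without A and C. Both genes overlapped between the groups, and no relation was taken within a group, with 4 frogs in each. TR54174|c5_g2 and TR61958|c4_g1 were the other 2 of the 4, but only frog D had a high level in either, so that no coefficient is given.

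For time, TR18817|c1_g1 had a rho of 0.86 (exact permutation p 0.011, adjusted p 0.73) and a Pearson r of 0.65 (exact permutation p 0.077), and an r of 0.84 without frogs E and H. TR43464|c0_g1 had a rho of 0.74 (exact permutation p 0.046, adjusted p 0.78) and an r of 0.88 (exact permutation p 0.0039). TR5609|c6_g1 had a rho of 0.79 (exact permutation p 0.028, adjusted p 0.77) and an r of 0.86 (exact permutation p 0.0057). Without frogs E and H, the 2 farthest from the median time, their r fell to 0.59 and 0.44, so that both relations rested on these frogs. Both genes belong to the set highest in E and lowest in H, the frogs with the highest and lowest total of estimated counts. Their Pearson r with that total was 0.74 (exact permutation p 0.026) and 0.64 (exact permutation p 0.082). By Spearman's rho, the relation to the total was 0.690 (exact permutation p 0.069) and 0.405 (exact permutation p 0.33). Since frogs E and H lie at the ends of both time and this total, the 2 relations cannot be told apart in these genes. The total counts assigned reads and is not the number of reads sequenced. For velocity the only gene was TR44909|c0_g2 (exact permutation p 0.017, adjusted p 1.0), whose frogs form separate classes, so that no coefficient is given.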

How the data were processed

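The authors trimmed the paired-end reads with Trimmomatic and pooled those of all frogs for 1 Trinity assembly, against which kallisto estimated abundances per frog. The tools are named with their version not given in the sources used here. Estimated counts, as deposited, are read pairs per transcript before any correction for length or depth, and the TPM values, also deposited, include kallisto's correction for effective length. Transcript lengths in the deposited tables are in bases. The 54 genes, the lists and the tests were chosen with earlier results of these data known.

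Estimated counts were summed per Trinity gene and divided by the frog's total for CPM. Rounded to whole numbers, they were tested with edgeR 4.0.16 in R 4.3.3 (TMM, glmQLFit, glmQLFTest) on the 35656 genes above 1 CPM in 2 or more frogs, a filter that all 54 passed. DESeq2 1.42.0, edgeR's exact test, limma 3.58.1 on log2(TPM + 1) and log2(TPM + 0.1), other scalings and filters, and each frog left out were alternatives. The group p-values rest on the spread between frogs within the groups, taken over both groups together. In each gene, that spread is moderated by the spread of the other genes tested. The SE of a log2 difference was worked back from the difference and the F statistic of the quasi-likelihood test. The trait p-values come from all orders of the 8 frogs. Trait values were read from the study's article and used only as input. Correlations were computed in Python 3.11.15 with pandas 2.3.3, scipy 1.17.1 and numpy 2.4.6. Both tests were checked on simulated data. Intervals for 0 counts are 3 counts and cover counting error only.

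Genes were named singly by a rule: the 6 of highest mean, the 6 of highest ratio of the second highest to the second lowest frog, the 6 of lowest p, the best for each trait, the 2 nearest the limit on each side, and the centre of each set of 5 or more. All others named were chosen after their values were seen.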

Additional observations from a re-analysis of the deposited data

Results flagged for a closer look

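In the genes named by the rule, a frog was marked where its distance from the nearest of the other 3 frogs of its group made up more of the group's range of log2(CPM + 1) than Dixon's critical value at the 95% level allows. Of 46 groups of 4 frogs, 10 had such a frog, and chance marks about 1 group in 20. A wide spread was the condition for choosing these genes, so that the 10 cannot be read against that rate.

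In TR77074|c4_g1, frog E had 8.44 CPM against 537 to 814 in the other endurant frogs, and frog C had 5.43 against 421 to 933 in the other burst-performant frogs. In TR34010|c1_g1, frog G had 661 CPM against 2.02 to 3.43 in its group, and frog C had 365 against 3.59 to 7.46 in its own. In TR10577|c0_g1, frog A had 532 CPM against 0.693 to 2.72. Frog A had 0 CPM of TR47664|c0_g2 against 677 to 917, and frog G had 0 of TR68556|c0_g1 against 27.9 to 44.4. Frog E had 2.75 CPM of TR21299|c6_g1 against 161 to 332. Among burst-performant frogs, C had 102 CPM of TR80183|c6_g1 against 163 to 176, and H had 6.07 CPM of TR25739|c8_g1 against 53.8 to 80.4. The marked frogs were A, C, E, G and H, so that no single library carried them.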

How the results depend on the processing

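There were 4 frogs a group and 1 library a frog, and of the 6 genes of lowest p between the groups, 4 had a log2 difference of 0.71 or less without 1 endurant frog. The number of genes meeting the rule was 48 with TMM CPM (45 of the 54 among them), 49 with DESeq2 size factors, 51 with a ratio of CPM + 1, 57 with TPM in the ratio, and 45 to 54 without one frog each. The quasi-likelihood test called 0 of 54 genes, and 1 was called by the DESeq2 Wald test, 1 by edgeR's exact test, 6 with no filter on low counts and 8 at an unadjusted p under 0.05. Without one frog each it called 0. Library size only, DESeq2 size factors, filterByExpr and limma with either pseudocount also gave 0. Genes without overlap between the groups numbered 2 with TMM CPM and 1 to 5 without one frog each. No share over all genes is given for these settings, and smaller groups separate more easily. These counts can therefore not be read as a result about the 54 genes.

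Genes related to time numbered 6 by Pearson r with a pseudocount of 1, 6 with 0.1, 1 with TMM CPM, and 1 to 8 without one frog each. With the pseudocount of 1, all 6 belong to the set highest in frog E and lowest in frog H. For velocity the related genes numbered 0, 0 and 2 in the same order, 0 in TPM, 2 without the 2 frogs farthest from the median, and 1 to 4 without one frog each. For acceleration they numbered 2 by Pearson r with either pseudocount and 2 to 5 without one frog each. For the total of estimated counts, a relation added after seeing the data as was the count at an unadjusted p, they numbered 4 and 4 by Pearson r, 2 with TMM CPM, 1 in TPM, 1 without the 2 farthest frogs and 0 to 6 without one frog each. No share over all genes is given beside these counts of genes related to a trait or to the total. They can therefore not be read against a background. The log2 difference of TR61958|c4_g1 ran from -0.24 without frog D to 6.61 without frog B. The other 5 genes of lowest p kept their direction under every alternative. No paired analysis was possible because the frogs' letters pair no frogs across the groups. The relation to distance was planned and not run, since distance splits the frogs into separate classes. The cause of these changes was not tested.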
